A study of Homo sapiens with 15 samples.

Results

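H9 human embryonic stem cells, driven toward bone-forming cells for 7 days, were compared between 2 particle exposures at the low level: fine particulate matter (FPM_IC25) and a standard reference material from NIST (SRM_IC25). The comparison covers the genes that reached at least 1 CPM (counts per 1 M counts of the library, M for mega) in each of the 3 SRM_IC25 libraries. These were 14706 of the 60675 genes listed, and all of them were among the 19012 genes tested. H9 is an established wild-type line. Every culture differentiated spontaneously in serum medium for 5 days, and until day 7 the medium also held ascorbic acid, β-glycerophosphate and vitamin D3. Particles were present throughout, at 0.00062 µg/mL in FPM_IC25 cultures and at 0.003 µg/mL in SRM_IC25 cultures, based on protein. The 2 low levels share the name IC25, an inhibitory concentration, but not the concentration itself. Beside them stand 3 libraries each of FPM_IC50 (1.4 µg/mL), SRM_IC50 (5.9 µg/mL) and UNT, the vehicle control with 0.1% DMSO. Nothing in the labels ties a replicate to a culture of its own, so the p-values measure the spread between these libraries, technical or not.

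Fine airborne particles carry combustion products and metals. Polycyclic aromatic compounds among them can bind the aryl hydrocarbon receptor, which switches on CYP1A1 and CYP1B1, while reactive compounds can switch on the NRF2 targets HMOX1 and NQO1. Cells on the way to bone pass through a mesenchymal stage, then turn on RUNX2 and SP7, the collagen gene COL1A1, and ALPL, the phosphatase that frees phosphate for mineral. Stem cells that leave pluripotency in serum medium also give rise to other lineages, among them neural ectoderm, so a bulk library mixes several cell types. In such a library, fewer cells of a type and less RNA per cell cannot be told apart.

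Total counts were 9.34, 21 and 58.2 M in the FPM_IC25 libraries, against 13.2, 51.2 and 16.96 M in the SRM_IC25 libraries. In these 6 libraries 3 counts, taken as the counting floor, correspond to 0.0515 to 0.321 CPM. The FPM libraries stood apart before any gene was compared. Genes that GENCODE annotates as antisense took 1.27, 1.01 and 0.942% of counts at FPM_IC25, against 0.298, 0.298 and 0.303% at SRM_IC25. UNT averaged 0.282%. All 3 FPM_IC25 libraries lay far above all 3 SRM_IC25 libraries, by 0.772 percentage points on average. The two-sided exact permutation test gave p = 0.1, the smallest that 3 against 3 allows. Library kit and protocol are the same for all samples in the labels, and the strand setting used in counting is not given in the sources used here. Particle and any difference in the preparation or counting of the FPM libraries therefore cannot be told apart.

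**Figure D1:**
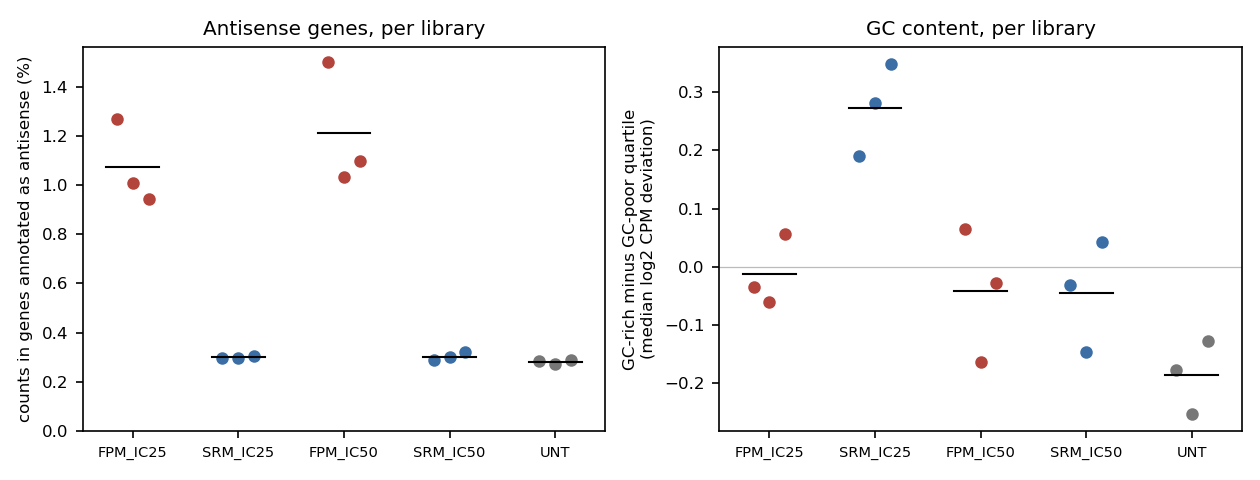
Each point is 1 library and each bar a group mean of 3. Left, share of counts in antisense genes (%), where both FPM groups lie near or above 0.942% and the other groups near 0.3%. Right, median log2 CPM deviation of GC-rich minus GC-poor genes, where the SRM_IC25 libraries are highest.

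At a Benjamini-Hochberg adjusted p under 0.05 in edgeR's quasi-likelihood test, 438 members differed (2.98% of members, against 10.5% of all tested genes). Of these, 329 were higher at FPM_IC25 (2.24% of members, against 9.89% of tested genes) and 109 were lower (0.741%, against 0.605%). Membership asks for 1 CPM in the SRM_IC25 libraries alone, so it drops genes that are low there. Of the 4306 tested genes outside it, 1551 were higher and 6 lower. The gap between the shares of members and of tested genes is therefore set in part by the rule. Over 2-fold, 135 members were higher and 7 lower, and the median log2 fold change of all members was -0.02. The split between higher and lower calls depended on the handling of the data. It was 305 higher and 551 lower with no expression filter, 343 and 216 in a fit of the 6 libraries alone, and 406 and 41 on log2(FPKM + 1) with limma. Without FPM_IC25 replicate 1 the count was 274, without FPM_IC25 replicate 2 it was 289, and without SRM_IC25 replicate 2 or 3 it was 270 each.

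Genes higher at FPM_IC25 were mostly genes that overlap another gene on the opposite strand. Members were sorted by their neighbour on the other strand in GENCODE 29. Among the 5860 members whose exons overlap exons of an opposite-strand gene, 290 were higher (4.95%) and 23 lower (0.392%). They made up 88.1% of all higher members. Among the 3389 members whose other strand holds no gene closer than 5 kb, 15 were higher (0.443%) and 39 lower (1.15%). Members inside the body of an opposite gene (2604: 0.461% higher, 0.499% lower) or near one (2797: 0.322% higher, 1.11% lower) also had few calls. By gene type, 228 of the higher members were protein-coding, beside 12878 protein-coding members not called. Another 71 were antisense genes, beside only 352 antisense members not called.

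The share called also followed the ratio of the opposite gene's level to the member's own, with the opposite gene called the partner here. Where the partner had under 0.1 times the member's own CPM at SRM_IC25, 0.627% of 3029 members were higher. That share was 10.7% of 1090 members where the partner had 1 to 10 times the own level, 29.2% of 359 where it had 10 to 100 times, and 63.5% of 52 beyond that. The own SRM_IC25 level is part of both that ratio and the fold, and its median was 6.12 CPM in higher members and 30.2 CPM in those not called. With the ratio taken in the UNT libraries instead, chosen after seeing these results, the shares were 0.623% of 3050 members, 1.42% of 1201, 10.5% of 1075, 27.4% of 361 and 63.1% of 65 over the same 5 ranges. Among members under 10 CPM at SRM_IC25, 22.8% of the 692 with a partner above their own level in UNT were higher, against 1.25% of the 801 with one below. At 30 to 100 CPM those shares were 7.99% of 313 and 1.04% of 1642, and at 100 CPM and over 0% of 24 and 0.247% of 810. Of 289 higher members with a measured partner, 255 had a partner above their own level (88.2%), against 22.8% of the 5440 members not called. Their gain in CPM was a median 11.5% of the partner's level, with quartiles of 5.31 and 20.3%. At the membership threshold, 4 of the 163 members at 1 to 1.1 CPM in their lowest SRM_IC25 library were higher and 0 lower, and of the 211 genes just outside, at 0.9 to 1 CPM, 16 were higher and 2 lower.

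**Figure D2:**
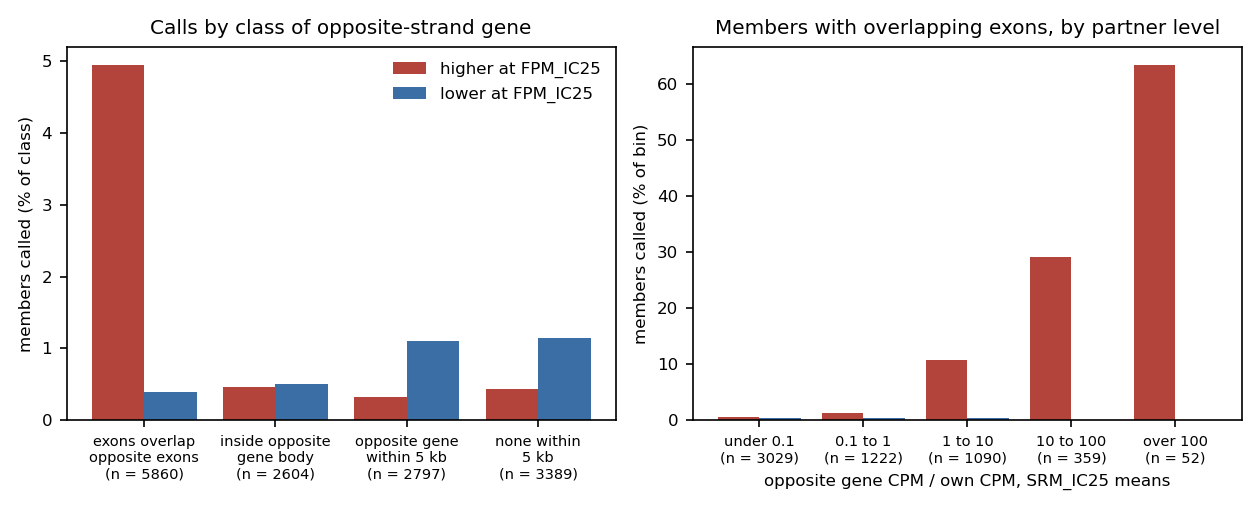
Percent of members called higher (red) or lower (blue) at FPM_IC25. Left, by opposite-strand class, with 4.95% higher where exons overlap and 0.443% where no opposite gene lies within 5 kb. Right, members with overlapping exons by the partner's level over their own, where the higher share climbs to 63.5%.

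BEST1, which encodes a chloride channel of the retinal pigment epithelium, gave the clearest example among protein-coding members. Its gene (ENSG00000167995, GRCh38 chromosome 11, 61949821 to 61965515) overlaps FTH1, the ferritin heavy chain gene, on the other strand. BEST1 had 445, 310.4 and 344 CPM in the FPM_IC25 libraries, against 4.16, 10.5 and 6.21 CPM in the SRM_IC25 libraries. UNT libraries held 1.12 to 2.32 CPM. The log2 fold change was 5.63 (SE 0.32, edgeR adjusted p = 3.16e-09), and the groups were far apart. FTH1 itself averaged 1316 CPM at FPM_IC25 and 1687 CPM at SRM_IC25.

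The next 4 genes by fold had partners of 329 CPM or more at FPM_IC25 on average. ATG10, an autophagy conjugating enzyme that overlaps the ribosomal gene RPS23, had 425, 261 and 277 CPM at FPM_IC25, against 14.8, 20.4 and 16.5 CPM at SRM_IC25 (log2 4.20). SNX22 and SNX32 encode sorting nexins, proteins of endosomal membranes. SNX22, opposite the cyclophilin gene PPIB, averaged 79.6 ± 12.6 CPM at FPM_IC25 and 4.09 ± 1.35 CPM at SRM_IC25 (SD, n = 3 each). SNX32, opposite the cofilin gene CFL1, averaged 66.7 ± 13.5 CPM at FPM_IC25 and 3.86 ± 0.196 CPM at SRM_IC25. LDLRAD2 lies opposite HSPG2, the perlecan gene, and averaged 21.1 ± 4.79 CPM at FPM_IC25 against 1.25 ± 0.0407 CPM at SRM_IC25. In all 5 the call held with any 1 of the 6 libraries left out. Reads of such a gene and of its partner cannot be told apart without strand, and these 5 genes are uncertain for that reason.

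The mitochondrial genome gave a further view of strand. MT-ND6, a complex I subunit, is the protein gene of the light strand, opposite the heavy-strand transcript that carries the other protein genes. It had 316, 343 and 322 CPM at FPM_IC25, against 65.5, 81.3 and 82.0 CPM at SRM_IC25, and UNT averaged 110.0 CPM. Its log2 fold change was 2.10 (SE 0.13, edgeR adjusted p = 5.23e-09). The list of 13 mitochondrially encoded protein genes had 11 members below 0, a median log2 fold change of -0.27 and no member called but MT-ND6. Of the 9 light-strand genes tested, 3 were members, and 2 of these were called higher. The other called member was MT-TP, the proline tRNA, with 20.7, 19.8 and 20.3 CPM at FPM_IC25, against 2.57, 3.16 and 4.10 CPM at SRM_IC25 (log2 2.62, adjusted p = 9.26e-06). UNT held 4.58 to 9.21 CPM of it, between the particle groups. MT-TQ, the glutamine tRNA, averaged 3.37 CPM at FPM_IC25 and 2.84 CPM at SRM_IC25 and did not pass (adjusted p = 0.537).

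The same members were read in the contrast of FPM_IC50 with SRM_IC50, whose 6 libraries entered the fit of the IC25 contrast through normalization and dispersion but not its group means. Of the 290 higher members with overlapping exons, 243 were also called higher in FPM_IC50 against SRM_IC50 (83.8%, against 20.5% of all members of that class), and 4 were called lower (background 15.6%). Over all tested genes the IC50 comparison called 39.3%, 23.2% higher and 16.2% lower. Of the 15 higher members with no opposite gene, 8 were called higher at IC50 (background 16.5%) and 2 lower. Of the 39 lower ones, 15 were called lower (background 22.8%) and 2 higher. Both levels share the FPM and SRM labels, so any difference in preparation between the particles would be shared as well, and this was not tested.

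**Figure D3:**
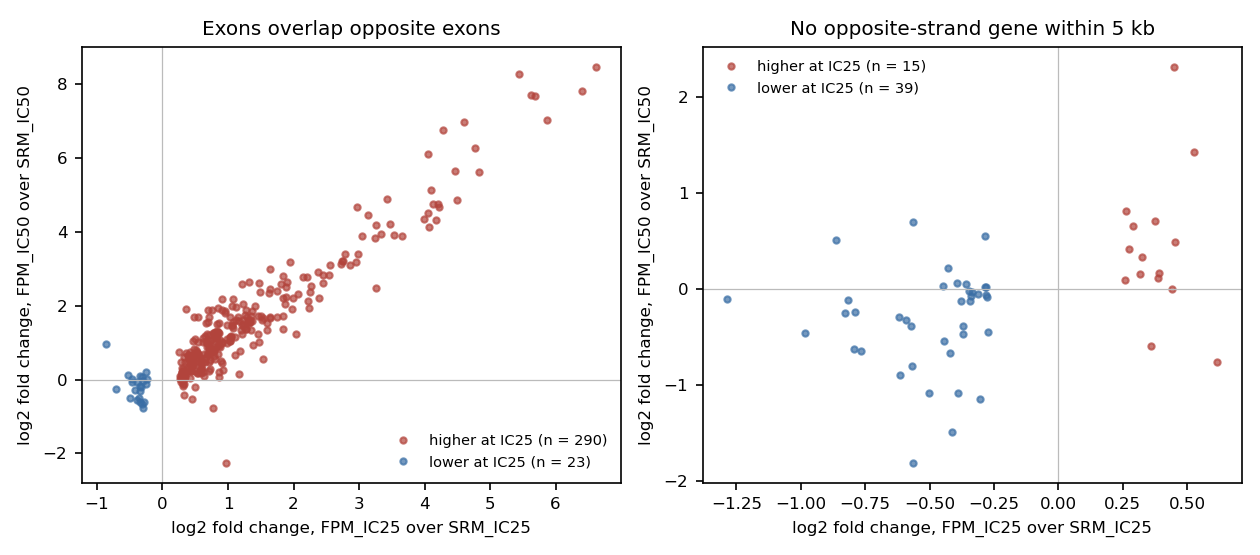
Log2 fold change of FPM over SRM at IC25 (x) and at IC50 (y) for members called at IC25, 1 point a gene. With overlapping exons (left) 280 of 290 higher members lie above 0 at IC50 too; with no opposite gene (right) 30 of 39 lower members lie below 0.

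Among the members without an opposite-strand neighbour, differences were small: 54 were called (1.59%, against 5.34% with overlapping exons), 0 of them over 2-fold higher and 1 over 2-fold lower. That gene was an unnamed processed pseudogene, singled out here after its values were seen. Every FPM_IC25 library lay above every SRM_IC25 library in 8.85% of the class (18% of all tested genes) and below in 13.2% (9.99% of all tested genes). The class holds members only, so the rule on SRM_IC25 levels enters this contrast as well. The 54 calls depended on single libraries. They came to 17 without FPM_IC25 replicate 1, 16 without FPM_IC25 replicate 2, 21 without SRM_IC25 replicate 2 and 13 without SRM_IC25 replicate 3. On log2(FPKM + 1) with limma the split was 36 higher and 13 lower, against 15 and 39 in edgeR. When the 4245 genes of this class passing the filter were fitted and adjusted alone, edgeR called 0 (smallest adjusted p = 0.0618), with 462 at an unadjusted p under 0.05. DESeq2, fitted on all genes, called 74 members of this class.

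GC content moved with these calls. The median GC content of the longest transcript was 40.1% in the 15 higher members, 58.5% in the 39 lower ones and 48.0% in those not called. Genes of the upper GC quartile (above 56.48%) minus those of the lower (below 41.88%) had a median log2 deviation of -0.03, -0.06 and 0.06 in the FPM_IC25 libraries, against 0.19, 0.28 and 0.35 in the SRM_IC25 libraries. UNT lay between -0.25 and -0.13. The SRM_IC25 libraries therefore stood farthest toward GC-rich genes, with no overlap (exact permutation p = 0.1, the smallest possible). Across the 3387 genes with a value, Spearman's rho between log2 fold change and GC content was -0.57, a description in which all genes share 6 libraries. Under a centred GC correction, which was added once results had been seen, 17 of the 54 calls remained, and the class had 2 higher and 20 lower. The part of GC content in the rest was not tested.

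**Figure D4:**
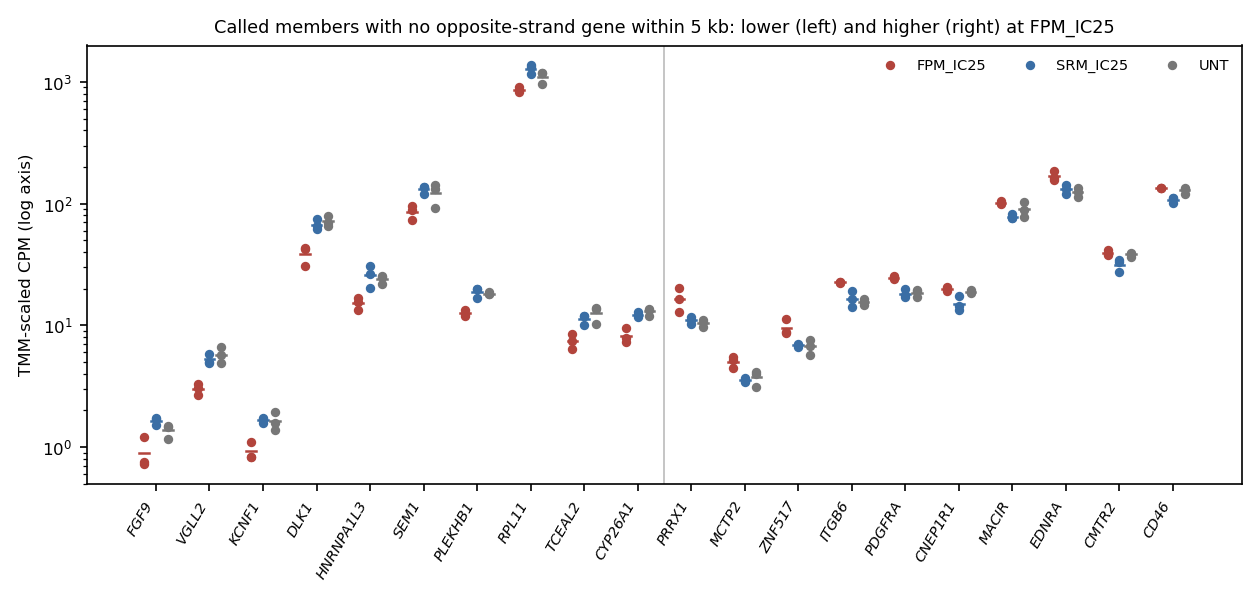
TMM-scaled CPM (log axis) of the 20 protein-coding members with the largest fold among those called, with groups that do not overlap and without a gene on the other strand closer than 5 kb. Points are libraries and bars group means. FPM_IC25 points lie below (left block) or above (right block) all SRM_IC25 points by the choice of genes.

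DLK1 was the lower gene of this class whose call was most stable to leaving out a library. DLK1, an imprinted Notch-related ligand of progenitor cells (ENSG00000185559, chromosome 14, 100725705 to 100738224), had 43.1, 30.9 and 42.5 CPM at FPM_IC25, against 74.7, 61.5 and 65.2 CPM at SRM_IC25. UNT held 65.3 to 79.3 CPM, within or just above the SRM_IC25 range. DLK1 fell by 0.79 on the log2 scale (SE 0.14, edgeR adjusted p = 0.000748), and the adjusted p stayed at or under 0.00498 with any 1 library left out. FGF9, a secreted growth factor, had 0.72, 1.21 and 0.756 CPM at FPM_IC25, against 1.74, 1.52 and 1.69 CPM at SRM_IC25 (log2 -0.86, adjusted p = 0.0185). VGLL2, a cofactor of TEAD transcription factors, averaged 3.02 ± 0.308 CPM at FPM_IC25 and 5.26 ± 0.51 CPM at SRM_IC25. KCNF1, a potassium channel subunit, averaged 0.923 ± 0.162 CPM at FPM_IC25 and 1.67 ± 0.0766 CPM at SRM_IC25. FGF9 and KCNF1 sit near the membership threshold, and both lost the call when some single libraries were left out. Both are members through SRM_IC25, the group where they are higher. Near 1 CPM the rule can keep a gene that is low at FPM_IC25 but not one that is low at SRM_IC25.

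Of the retinoid list, 2 genes were lower. CYP26A1, the enzyme that degrades retinoic acid (ENSG00000095596, chromosome 10, 93073475 to 93077890), had 7.82, 7.29 and 9.43 CPM at FPM_IC25, against 12.1, 12.9 and 11.7 CPM at SRM_IC25. UNT held 12 to 13.7 CPM, so the FPM_IC25 libraries were the low ones. It fell by 0.57 on the log2 scale (SE 0.12, edgeR adjusted p = 0.00307) and passed with any 1 library left out. Its neighbour CYP26C1, a related enzyme, had 10.9, 14 and 9.71 CPM at FPM_IC25, against 17.4, 15.7 and 17.0 CPM at SRM_IC25 (log2 -0.54, adjusted p = 0.0446), and kept the call in 1 of the 6 such fits. Those 2 were the members called of 16, whose median was -0.04, with a sign that changed between settings (0.04 under the centred GC correction).

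CYP26A1 is itself switched on by retinoic acid through response elements in its promoter, and a promoter window is shown for that reason. RefSeq gives 2 starts for the gene in GRCh38.p14. The window shown, plus strand, chr10:93073643-93073892, covers 250 bases before the downstream start and so lies inside the span given above. Capitals mark a direct repeat of AGTTCA with 5 bases between the copies, which begins at position -90 and is read on the opposite strand, and the letters TATAAA at -31.
CYP26A1: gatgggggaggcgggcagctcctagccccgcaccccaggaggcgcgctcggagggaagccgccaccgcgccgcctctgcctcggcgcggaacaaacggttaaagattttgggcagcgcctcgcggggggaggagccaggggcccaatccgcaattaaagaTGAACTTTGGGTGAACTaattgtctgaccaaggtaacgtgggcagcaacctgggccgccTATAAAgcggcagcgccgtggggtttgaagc
Searched on both strands, that repeat lay in 3 of 35116 RefSeq windows of the same length (0.00854%), with CYP26A1 among the 3. The letters searched are exactly those in the window shown, so this share is a description and no test. TATAAA lay in 3763 of them (10.7%). The window before the upstream start, at the beginning of that span, had neither. A match describes letters and says nothing of binding in these cells.

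Bone markers were nearly level apart from ALPL. ALPL had 64.0, 73.8 and 67.1 CPM at FPM_IC25, against 84.0, 90.3 and 94.0 CPM at SRM_IC25, and UNT averaged 88.3 CPM. Its log2 fold change was -0.39 (SE 0.09, edgeR adjusted p = 0.00531), with no overlap between the groups, and it passed in all 6 fits with 1 library left out. COL1A1 averaged 284 ± 12 CPM at FPM_IC25 and 285 ± 56.0 CPM at SRM_IC25, and SPP1, the osteopontin gene, 277 ± 13.5 CPM at FPM_IC25 and 284 ± 50.4 CPM at SRM_IC25. RUNX2 averaged 7.14 ± 0.774 CPM at FPM_IC25 and 6.28 ± 1.38 CPM at SRM_IC25. SP7 was no member, at 0.839 CPM at FPM_IC25 and 1.04 CPM at SRM_IC25, so this late regulator was close to the threshold in cultures labelled osteogenic. None of these 4 passed (adjusted p of 0.611 to 0.988). ALPL was the member called in the osteoblast list, of 14 members, and the list median was -0.08.

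Genes of the mesenchymal state included 2 that were higher. PRRX1, a homeobox factor of limb and craniofacial mesenchyme, had 13, 20.2 and 16.6 CPM at FPM_IC25, against 11, 10.2 and 11.8 CPM at SRM_IC25 (log2 0.62, SE 0.15, edgeR adjusted p = 0.0104). PDGFRA, the alpha receptor for platelet-derived growth factor, had 23.9, 25.1 and 25.2 CPM at FPM_IC25, against 17.8, 17.2 and 19.8 CPM at SRM_IC25 (log2 0.44, adjusted p = 0.0141). UNT lay at 9.75 to 11 CPM for PRRX1 and 17.3 to 19.5 CPM for PDGFRA, below every FPM_IC25 library. Both genes lost the call with some libraries left out, PRRX1 in 2 of the 6 fits and PDGFRA in 3. Under the centred GC correction PRRX1 kept the call and PDGFRA lost it (edgeR adjusted p = 0.0423 and 0.0503). In the mesenchymal transition list these 2 of 15 members were called, and the median was 0.07. Under a GC correction learned on all genes the list median was -0.18, against -0.30 for all members.

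EDNRA, ITGB6 and CD46, which encode cell surface proteins, were higher as well. EDNRA, the endothelin A receptor, averaged 169 ± 15.5 CPM at FPM_IC25 and 131 ± 10.9 CPM at SRM_IC25. ITGB6, an epithelial integrin subunit, averaged 22.6 ± 0.255 CPM at FPM_IC25 and 16.5 ± 2.48 CPM at SRM_IC25. CD46, a complement regulator on most cells, averaged 135 ± 0.736 CPM at FPM_IC25 and 108 ± 6.56 CPM at SRM_IC25, while UNT averaged 129 CPM. MCTP2, ZNF517, CNEP1R1, MACIR and CMTR2 completed the 10 named by fold, with log2 fold changes of 0.32 to 0.53. For CD46, CMTR2 and CNEP1R1 the UNT mean lay closer to FPM_IC25 than to SRM_IC25. Under a GC correction learned on all genes, which moved the median of all members to -0.30, CD46 and CMTR2 changed sign (-0.078 and -0.062). None of the 15 higher genes of this class kept the call in all 6 fits with 1 library left out. Under the centred GC correction 2 of the 15 kept it, PRRX1 and ZNF517. EDNRA, ITGB6 and CD46 lost it there (edgeR adjusted p of 0.184 to 0.428).

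Ribosomal protein genes were below 0 together, though few passed. All 34 listed members had negative log2 fold changes, with a median of -0.42 against -0.02 for all members; 3 were called lower, 0 higher, and 17 had an unadjusted p under 0.05, against 13.2% of all members. RPL11, of the large subunit, had 903, 828 and 859 CPM at FPM_IC25, against 1167, 1365 and 1321 CPM at SRM_IC25 (log2 -0.57, SE 0.12, edgeR adjusted p = 0.0037). RPL28 averaged 554 ± 56.7 CPM at FPM_IC25 and 853 ± 116 CPM at SRM_IC25. RPL14 averaged 765 ± 20.8 CPM at FPM_IC25 and 1046 ± 93.9 CPM at SRM_IC25. Of the 3, RPL11 kept the call in all 6 fits with 1 library left out, and RPL14 and RPL28 in 2 each. The summed level of the 34 genes was 40772, 36264 and 44847 CPM at FPM_IC25, against 43169, 56017 and 58634 CPM at SRM_IC25. It was 39213, 47252 and 57123 CPM in UNT. The particle groups overlapped in that sum, and the controls covered nearly the whole range. Ribosomal genes have many processed pseudogenes with near-identical sequence, and 12 processed pseudogenes were among the lower members, so counts of single genes are uncertain.

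Nuclear-encoded mitochondrial genes and histones behaved alike in the direction of their medians. Of the 32 nuclear oxidative phosphorylation members, 2 lay above 0, the median was -0.29 and NDUFB10, a complex I subunit, was called (55.4 ± 3.62 CPM at FPM_IC25 and 82.7 ± 8.30 CPM at SRM_IC25). That call held in 1 of the 6 fits with 1 library left out and not under the centred GC correction or on FPKM values. The 9 replication-dependent histone members had a median of -0.43, with 0 above 0 and 0 called by edgeR, 2 of them at an unadjusted p under 0.05. The summed oxidative phosphorylation level was 3640 to 4230 CPM at FPM_IC25, 3894 to 5021 CPM at SRM_IC25 and 3794 to 5079 CPM in UNT. For the histones it was 22.04 to 26.84 CPM at FPM_IC25, 23.08 to 36.83 CPM at SRM_IC25 and 19.65 to 31.04 CPM in UNT. The particle groups overlapped in both sums, with SRM_IC25 replicate 1 inside the FPM_IC25 range. Transcript length was measured beside these lists. Long minus short genes, by quartiles, had a median log2 deviation of 0.06, 0.24 and -0.05 in the FPM_IC25 libraries, against 0.10, -0.22 and -0.28 in the SRM_IC25 libraries, with overlap (exact permutation p = 0.3). The part of length in these lists was not tested.

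Neural genes were mixed. The neuroectoderm list had 17 of 20 members at or below 0, a median of -0.31, 11 members at an unadjusted p under 0.05 (13.2% of all members) and 1 call. SFRP2, a secreted WNT antagonist, had 311, 201 and 331 CPM at FPM_IC25, against 472, 369.9 and 403 CPM at SRM_IC25 (log2 -0.56, edgeR adjusted p = 0.039), and it held in 3 of the 6 fits with 1 library left out. The summed neuroectoderm level was 1231 to 1516 CPM at FPM_IC25, 1542 to 1925 CPM at SRM_IC25 and 1896 to 2036 CPM in UNT. Early neuron genes leaned the other way in their median, 0.28 over 13 members, with 8 above 0. By edgeR 0 were called, and 1 had an unadjusted p under 0.05. Their summed level overlapped, at 233 to 268 CPM at FPM_IC25, 242 to 251 CPM at SRM_IC25 and 238 to 298 CPM in UNT. DRD4, a dopamine receptor gene with an opposite neighbour within 5 kb, was lower at log2 -0.74 and kept the call in 2 of the 6 fits.

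**Figure D5:**
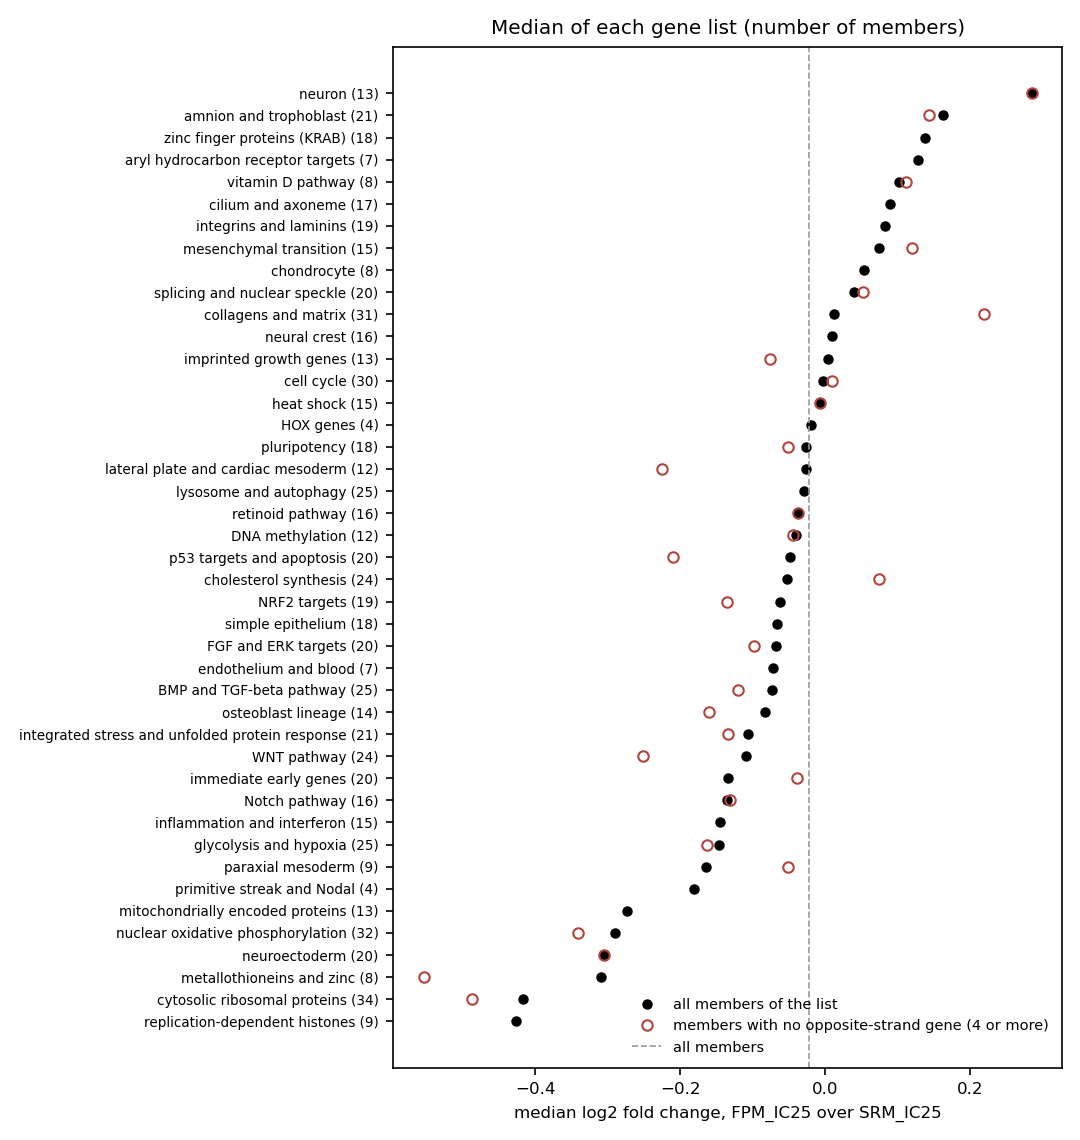
Median log2 fold change of FPM_IC25 over SRM_IC25 for each of 43 lists with at least 4 members. Filled points use all members, open points those without an opposite-strand neighbour (4 or more), and the dashed line is the median of all members (-0.02). Histone, ribosomal, metallothionein, neuroectoderm and oxidative phosphorylation genes lie at the low end.

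Targets of the aryl hydrocarbon receptor and of NRF2 did not pass. CYP1A1 had 7.51, 7.70 and 7.93 CPM at FPM_IC25, against 4.01, 7.04 and 6.33 CPM at SRM_IC25, a log2 fold change of 0.38 (SE 0.18, edgeR adjusted p = 0.276). CYP1B1 averaged 26.0 ± 2.49 CPM at FPM_IC25 and 23.8 ± 0.271 CPM at SRM_IC25. HMOX1 averaged 28.5 ± 3.79 CPM at FPM_IC25 and 29.7 ± 4.11 CPM at SRM_IC25, and NQO1 82.3 ± 7.15 CPM at FPM_IC25 and 85.7 ± 10.8 CPM at SRM_IC25. None of the 7 aryl hydrocarbon receptor targets and none of the 19 NRF2 targets was called by edgeR, with 0 and 1 at an unadjusted p under 0.05. MT2A, a metallothionein that binds zinc and cadmium, was called lower with 6.28, 8.03 and 9.34 CPM at FPM_IC25, against 9.99, 15.0 and 16.5 CPM at SRM_IC25 (log2 -0.78, adjusted p = 0.0127). UNT averaged 9.44 CPM, nearer to FPM_IC25. The MT2A call held in 3 of the 6 fits with 1 library left out. It was the member called of 8 in the metallothionein and zinc list, whose median was -0.31. In that list 3 members lay above 0 and 4 had an unadjusted p under 0.05.

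Pluripotency genes were close between the particles. POU5F1, the core factor also known as OCT4, averaged 158 ± 19.6 CPM at FPM_IC25 and 197 ± 32.8 CPM at SRM_IC25 (adjusted p = 0.34). NANOG averaged 4.15 ± 0.47 CPM at FPM_IC25 and 4.31 ± 0.608 CPM at SRM_IC25. SOX2 had 84.4, 76.0 and 82.2 CPM at FPM_IC25, against 101, 92.4 and 111 CPM at SRM_IC25, without overlap but not past the threshold (log2 -0.33, edgeR adjusted p = 0.0758). The list of 18 had a median of -0.03 (0.03 on log2(FPKM + 1)) and 0 members called by edgeR, 2 at an unadjusted p under 0.05. Amnion and trophoblast genes had a median of 0.16 over 21 members, 14 of them above 0. Of these genes 0 were called and 0 had an unadjusted p under 0.05. Under a GC correction learned on all genes the list median was -0.16, against -0.30 for all members.

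In all, the 44 lists held 712 distinct members, of which 9 were called higher and 12 lower, against 2.24% and 0.741% of all members, and 15 lists had a called member. The remaining calls were scattered over signalling and housekeeping lists. FZD2, a WNT receptor, was lower (log2 -0.28) and TGFBR1, the type I TGF-beta receptor, was higher (0.31). Under a GC correction learned on all genes TGFBR1 had -0.037, against a median of -0.30 for all members. DDIT4, an inhibitor of mTORC1, was lower (-0.36), and PEG3, an imprinted zinc finger gene, was higher (0.45). Of the higher members CCNE2 (cyclin E2), ATG7 (an autophagy enzyme) and IFT80 and KIF3A (ciliary transport) all overlap opposite exons, and IFT80 and KIF3A changed sign under that correction (-0.043 and -0.059). With 1 library left out, the calls of FZD2 and TGFBR1 held in 1 of the 6 fits, those of DDIT4 and IFT80 in 2, that of KIF3A in 3 and that of PEG3 in 4. Among genes with an opposite neighbour, LEMD1 (log2 -0.71, call held in 1 of the 6) and FN3K, the fructosamine kinase (-0.69), were also lower. FN3K had 9.67, 11.4 and 12.2 CPM at FPM_IC25, against 17.9, 17.0 and 19.6 CPM at SRM_IC25 (edgeR adjusted p = 0.000291) and kept the call in all 6 fits with 1 library left out.

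Set beside the vehicle control, which both particle groups share, the genes with no opposite neighbour fell into different arrangements. Fold changes over UNT also moved with GC content across the 3387 genes of this class with a value. Spearman's rho was 0.30 for FPM_IC25 over UNT and 0.71 for SRM_IC25 over UNT. The part of GC content in the arrangements below was not tested. DLK1 had a log2 fold change of -0.88 for FPM_IC25 over UNT and -0.09 for SRM_IC25 over UNT. CYP26A1 had -0.65 for FPM_IC25 and -0.09 for SRM_IC25, and ALPL had -0.37 for FPM_IC25 and 0.02 for SRM_IC25. VGLL2 had -0.95 for FPM_IC25 and -0.13 for SRM_IC25, while PRRX1 had 0.68 for FPM_IC25 and 0.07 for SRM_IC25. FZD2 was the other way round, with 0.11 for FPM_IC25 and 0.39 for SRM_IC25, and RPL11 lay on both sides of the control, with -0.36 for FPM_IC25 and 0.22 for SRM_IC25. NRM, a nuclear envelope gene that kept its call in all 6 fits with 1 library left out, averaged 44 ± 2.69 CPM at FPM_IC25 and 56 ± 2.47 CPM at SRM_IC25 (46 CPM in UNT) and was named after its values were seen. Beside DLK1, RPL11, CYP26A1 and ALPL it was the fifth such gene of the 54.

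SEM1, a small proteasome subunit, PLEKHB1, a membrane adaptor, TCEAL2 and HNRNPA1L3 completed the 10 lower genes of this class. SEM1 averaged 85.8 ± 11.4 CPM at FPM_IC25 and 131 ± 10.4 CPM at SRM_IC25. PLEKHB1 averaged 12.6 ± 0.748 CPM at FPM_IC25 and 18.9 ± 1.77 CPM at SRM_IC25. HNRNPA1L3 is a near copy of HNRNPA1, so its 15.2 ± 1.77 CPM at FPM_IC25 and 26.0 ± 5.35 CPM at SRM_IC25 may include reads of the parent gene. TCEAL2 averaged 7.47 ± 1.09 CPM at FPM_IC25 and 11.3 ± 1.14 CPM at SRM_IC25.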

How the data were processed

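Whole-number read counts per gene were deposited by the authors for 15 libraries of polyadenylated RNA. Per the submitters' processing notes, HISAT2 2.2.1 (GRCh38), SAMtools 1.10, featureCounts from Subread 2.0.15, FastQC 0.11.7 and DESeq2 were used; annotation release and strand setting: not given in the sources used here. The FPKM values deposited by the authors were used in 2 alternatives. The table also has 1 column of gene lengths. Total counts ranged from 9.34 to 58.2 M; floors cover counting error only, because PCR copies were not marked with molecular identifiers.

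The test was that of edgeR 4.0.16 under R 4.3.3 on these counts (TMM, filterByExpr, robust quasi-likelihood, 5 group means over all 15 libraries) with Benjamini-Hochberg adjustment over 19012 genes at 0.05. Membership used plain CPM; printed CPM are TMM-scaled, as mean ± SD of 3 libraries. Tests on simulated counts recovered known fold changes. GENCODE 29 (coordinates 1-based, GRCh38) placed 57055 of 60675 identifiers; 41209 had an approved symbol. GC content is that of the longest transcript.

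Named genes were protein-coding members past the threshold with an approved symbol and groups that do not overlap: the 10 of largest fold each way without an opposite-strand neighbour closer than 5 kb and 5 each way with one. Up to 4 called members per list, 12 exposure and lineage markers, MT-ND6 and MT-TQ were added. 1 gene the rule would name is not reported here. The members, lists and rules were chosen with earlier results of these data known, and the test of the difference between levels and the length measure were chosen after results had been seen. Other settings tried were DESeq2 1.42.0 as test, its size factors within edgeR, no filter, the 6 libraries alone, a replicate block, limma 3.58.1 on log2(FPKM + 1) and log2(FPKM + 0.1) for genes of mean FPKM of at least 1, GC correction (a smooth of 5 terms per library), a fit of the genes without an opposite neighbour alone, another membership rule, and each library left out. Libraries of a group correlated at 0.982 to 0.994 (Pearson, log2 CPM) and differed by more than sampling noise, so all were kept.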

Additional observations from a re-analysis of the deposited data

Results flagged for a closer look

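The difference between FPM and SRM was tested for a change between the IC25 and IC50 levels (an interaction term in edgeR's quasi-likelihood fit, Benjamini-Hochberg adjusted over all tested genes). Of 55 named genes, 17 passed, and of all 19012 tested genes 2775. Many named genes were chosen by their IC25 fold, which enters this difference, so these counts cannot be compared. Values are the log2 difference at IC25 minus that at IC50.

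In 7 of them the log2 fold change had opposite signs at the 2 levels. FGF9 (-1.37, adjusted p = 0.015), DRD4 (-1.34, adjusted p = 0.00774) and SFRP2 (-1.26, adjusted p = 0.00188) were lower at FPM_IC25 than at SRM_IC25 and above 0 in FPM_IC50 against SRM_IC50. SFRP2, for instance, had a log2 fold change of -0.56 at IC25 and 0.70 at IC50. PRRX1 (1.38, adjusted p = 0.00057) and EDNRA (0.96, adjusted p = 0.000586) were higher at FPM_IC25 and below 0 at IC50, at -0.76 and -0.60. CYP1A1 (1.33, adjusted p = 0.00284) and CYP1B1 (0.83, adjusted p = 0.011) lay above 0 at IC25 without passing and below 0 at IC50, at -0.95 and -0.70.

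The integrin gene ITGB6 (-1.86, adjusted p = 1.2e-05) and MCTP2 (-0.89, adjusted p = 0.0208) were higher with FPM at both levels, with a larger fold at IC50. BEST1 (-2.09, adjusted p = 0.00511) and SNX32 (-1.04, adjusted p = 0.0463), which overlap abundant opposite genes, were too. A larger fold need not be a change with the FPM level. ITGB6 averaged 22.6 CPM at FPM_IC25 and at FPM_IC50, against 16.5 CPM at SRM_IC25 and 4.70 CPM at SRM_IC50. MCTP2 averaged 5.05 CPM at FPM_IC25 and 4.39 CPM at FPM_IC50, against 3.53 CPM at SRM_IC25 and 1.57 CPM at SRM_IC50. ALPL (0.70, adjusted p = 0.0012) and CYP26A1 (1.25, adjusted p = 0.000116) were lower at both levels, with log2 fold changes at IC50 of -1.09 and -1.81. CYP26A1 averaged 8.18 CPM at FPM_IC25 and 11.1 CPM at FPM_IC50, against 12.2 CPM at SRM_IC25 and 38.9 CPM at SRM_IC50. FN3K (-0.57, adjusted p = 0.0284) had -0.69 at IC25 and -0.12 at IC50.

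The pluripotency factors NANOG (1.89, adjusted p = 7.69e-05), POU5F1 (1.49, adjusted p = 0.000582) and SOX2 (1.16, adjusted p = 9.7e-05) did not pass at IC25 and were lower in FPM_IC50 than in SRM_IC50, at -1.94, -1.80 and -1.48.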

How the results depend on the processing

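All members (438 calls) gave 434 to 559 calls with DESeq2, its size factors, FPKM or 6 libraries and 326 with the centred GC correction, but 856 with no filter, 1289 by a mean of at least 1 CPM (1180 higher, 109 lower), and 270 to 492 with a library left out. The class without an opposite gene (54) gave 155 with no filter, 94 with 6 libraries, 22 with the centred GC correction, and 0 fitted alone, alone with the GC correction or alone with its centred form (13 to 66 with a library left out). Members with overlapping exons (313) gave 1122 by the mean rule and 222 to 309 with a library left out. A GC smooth learned on all genes, the form planned, moved the median of all members to -0.30 and gave 6592 calls (201 higher, 6391 lower), 1455 without an opposite gene and 2704 with overlapping exons; the centred form, learned on genes without an opposite neighbour, was chosen after seeing that. Under the first form CMTR2 (-0.062), CD46 (-0.078), TGFBR1 (-0.037), IFT80 (-0.043) and KIF3A (-0.059) changed sign, and the cause was not tested. Under the centred form CMTR2 (0.159) and CD46 (0.152) stayed above 0. With the replicate number as a block all members gave 1344 calls (572 higher, 772 lower). The class without an opposite gene gave 249 and members with overlapping exons 681. Deviations of same-numbered FPM_IC25 and SRM_IC25 libraries correlated at -0.07, -0.13 and 0.18. The best match was FPM_IC25 replicate 2 with SRM_IC25 replicate 1 (0.26). In every group, though, replicate 3 had the lowest long-minus-short deviation and replicate 1 the largest TMM factor. Whether the numbers pair the samples was not settled. The fit restricted to genes without an opposite neighbour gives no count for all members. The antisense share difference was 0.759 points over filtered genes. Of 902 values for 55 named genes under alternatives, 633 kept direction and side of the threshold, 258 no longer passed, 6 newly passed and 5 changed sign; of 771 list medians, 127 moved by more than the replicate spread. FGF9 and KCNF1, near 1 CPM, are limited by depth.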
